A study of Mus musculus with 4 samples.

Results

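Elastic fibres give skin, lung and artery their recoil, and 10 genes that encode their core proteins and the fibulins around them were followed in mouse embryonic fibroblasts with and without Mll1. The genes listed were Efemp1, Efemp2, Fbln1, Fbln2, Fbln5, Fbn1, Fbn2, Eln, Mfap4 and Mfap5, and every array feature annotated with one of these symbols was taken. This gave 12 features of 8 genes, out of 45018 features on the array and 19087 genes with a singly named feature. Of the 8 genes, 7 had a feature with a value on all arrays and were tested among 14222 genes. Efemp2 and Fbn1 were not analysed here, because no feature carried their symbol. Mfap5 lacked a value on array 3 and is described without a place in the main test.

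The RNA came from mouse embryonic fibroblast lines of genotype Mll1-/- and wild type, grown in DMEM with 10% FBS, and both were hybridised together on each of 4 arrays, in different dyes. Such fibroblasts are matrix-producing cells cultured from embryos, and Mll1, now Kmt2a, encodes a histone H3 lysine 4 methyltransferase. The labels give no strain, embryo age, passage or number of lines, and do not say which part of Mll1 is missing. Genotype and cell line therefore cannot be told apart, and p-values measure the spread between arrays, which may be technical. The knockout's dye was Cy5 on the arrays numbered 1 and 3, and Cy3 on the others, and each value below is a log2 ratio of the channels. Its direction is not stated and is taken as Mll1-/- over wild type, which is likely because the sample titles name the mutant before the wild type and because Kmt2a is lower that way (−1.24 ± 0.42, SD, n = 4). With the opposite direction, each rise given here would be a fall and each fall a rise. No channel intensities were used here, so neither the level of a gene in either line nor its distance from background is known, and the presence of fibroblast markers could not be checked. A lower ratio in such a culture cannot tell fewer expressing cells from less RNA per cell.

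An elastic fibre has an amorphous core of cross-linked elastin, encoded by Eln, laid down on a scaffold of microfibrils whose main proteins are the fibrillins. Microfibril-associated glycoproteins such as those of Mfap4 and Mfap5 bind the scaffold, lysyl oxidases cross-link the elastin, and the short fibulins 3, 4 and 5 (Efemp1, Efemp2 and Fbln5) take part in bringing the components together. Fibulin-1 and fibulin-2 are longer family members found in elastic fibres and basement membranes. Fibroblasts and smooth muscle cells are the usual makers of these proteins.

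Promoter sequences are shown for the fibulins, since 3 of them fell and 1 did not pass the test on the same arrays. Mll1 is known to bind CpG-rich DNA through its CXXC domain, so CpG dinucleotides are in capitals. Each window runs 5′ to 3′ from 250 bases before to 50 bases after the first start listed for the gene (RefSeq, build GRCm38.p6). A window was found for 6 of the 10 genes.
Efemp1 promoter, chr11:28852955-28853254, plus strand: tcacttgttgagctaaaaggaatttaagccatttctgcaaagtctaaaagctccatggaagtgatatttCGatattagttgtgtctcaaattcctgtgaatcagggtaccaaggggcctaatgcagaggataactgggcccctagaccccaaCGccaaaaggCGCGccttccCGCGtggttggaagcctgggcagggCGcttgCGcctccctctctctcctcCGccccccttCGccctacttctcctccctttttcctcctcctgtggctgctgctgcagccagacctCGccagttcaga
Fbln1 promoter, chr15:85205699-85205998, plus strand: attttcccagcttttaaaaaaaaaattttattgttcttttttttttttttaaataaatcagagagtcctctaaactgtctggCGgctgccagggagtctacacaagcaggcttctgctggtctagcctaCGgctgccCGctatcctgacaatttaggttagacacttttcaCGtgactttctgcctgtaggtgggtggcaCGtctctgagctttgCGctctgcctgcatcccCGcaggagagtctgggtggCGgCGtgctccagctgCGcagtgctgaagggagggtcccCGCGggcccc
Fbln5 promoter, chr12:101819070-101819369, minus strand: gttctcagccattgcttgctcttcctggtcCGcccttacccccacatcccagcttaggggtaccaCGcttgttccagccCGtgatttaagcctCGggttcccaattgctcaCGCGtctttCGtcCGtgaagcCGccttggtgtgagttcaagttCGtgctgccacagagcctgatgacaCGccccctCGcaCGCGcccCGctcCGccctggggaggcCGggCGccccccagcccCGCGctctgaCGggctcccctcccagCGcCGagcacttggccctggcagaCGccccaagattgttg
Fbln2 promoter, chr6:91212514-91212813, plus strand: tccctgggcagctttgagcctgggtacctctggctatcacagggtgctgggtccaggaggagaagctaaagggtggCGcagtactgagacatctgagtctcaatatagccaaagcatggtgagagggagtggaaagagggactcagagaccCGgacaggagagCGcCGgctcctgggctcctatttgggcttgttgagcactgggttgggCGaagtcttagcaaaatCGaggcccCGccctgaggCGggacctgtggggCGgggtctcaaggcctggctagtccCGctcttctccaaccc

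The printed windows held 11 CpG dinucleotides for Efemp1, 12 for Fbln1, 24 for Fbln5 and 10 for Fbln2, where the median over all 32851 windows of the same length was 7. Whether CpG counts relate to the log2 ratios was not tested. The window of a further listed start of Fbln1 overlaps the printed one and held 24 CpGs, while a further start of Fbln5 had 8. Motifs were searched on both strands, and none of those searched contains another. The GC box GGGCGG occurred in the Efemp1, Fbln5 and Fbln2 windows and in 35.7% of all windows, but not in the printed Fbln1 window. The E-box CACGTG, a palindrome, occurred only in the Fbln1 window among the 4 (7.15% of all windows), and CCAAT only in that of Fbln5 (37.4%). Neither TATAAA (13.6%) nor TGACTCA (5.20%) occurred in these 4 windows.

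Of the 7 genes tested, 4 fell in Mll1-/- fibroblasts and 0 rose. All 4 that fell encode a fibulin or a fibrillin, but so do most of the 7, all except Eln and Mfap4. Elastin itself, Mfap4 and Fbln2 did not pass, nor did any of them have an unadjusted p under 0.05. Among all genes tested, 30.1% fell and 29.1% rose (limma with a dye term, Benjamini-Hochberg adjusted p under 0.05), so a call in either direction was common on these arrays and 4 of 7 is read against that background. With an array left out, the count of all genes that rose went from 4140 to between 2532 and 2860. That of all genes that fell went from 4275 to between 2879 and 3005. The 4 calls among the listed genes were kept with each array left out. At least 2-fold falls made up 8.06% of all genes and 3 of the 7 (Efemp1, Fbn2 and Fbln1). The median log2 ratio of the 7 was −0.98, against −0.00 over all genes. Since the genes were listed with earlier results of these data known, these comparisons describe the list and do not test it.

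**Figure D1:**
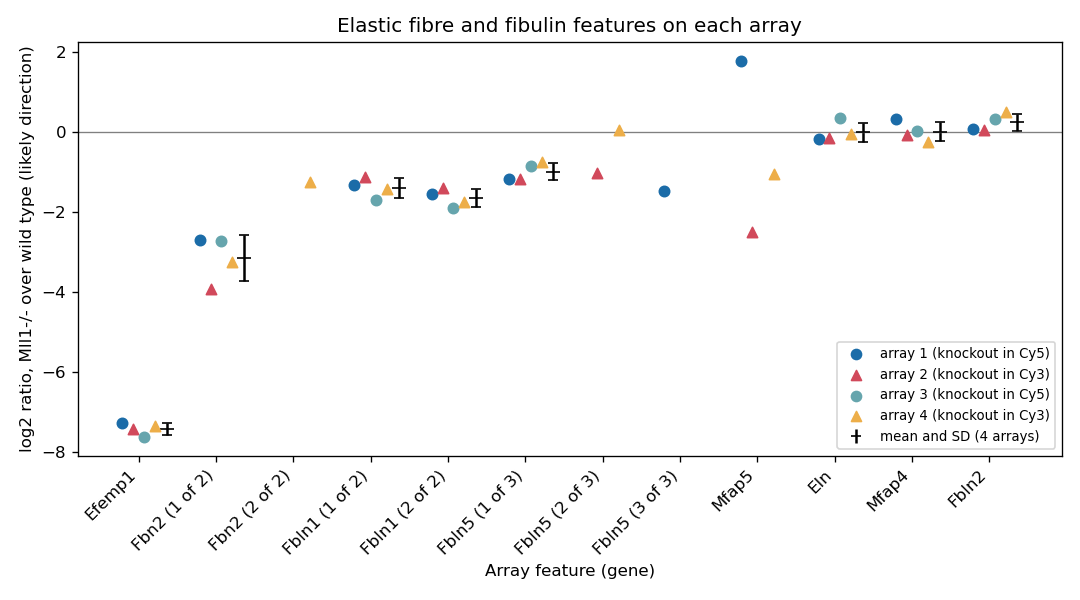
Log2 ratio (Mll1-/- over wild type, the likely direction) of each of the 12 features on each array that held a value, with the knockout's dye as the symbol shape and the mean and SD beside features measured on all 4 arrays. Efemp1 lies between −7.62 and −7.26 on every array, Eln, Mfap4 and Fbln2 lie within 0.52 of zero, and Mfap5 spans both sides of zero.

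Efemp1 encodes fibulin-3, a short fibulin of elastic fibres and fascia that binds the metalloproteinase inhibitor TIMP-3. Its log2 ratio was −7.26 on array 1, −7.43 on array 2, −7.62 on array 3 and −7.35 on array 4. The 4 values lay within a narrow band, with means of −7.44 for the knockout in Cy5 and −7.39 in Cy3. The mean of −7.42 ± 0.15 (SD, n = 4) is a 171-fold difference (limma, adjusted p = 0.000426), and no other of the 14222 genes had a lower ratio. Whether either channel was near background at this feature is not visible in a ratio. By Euclidean distance between the 4 log2 ratios, the genes closest to Efemp1 were C4bp (distance 1.15), Hoxc9 (1.80) and Il20ra (1.81). Each had a mean ratio between −6.88 and −6.53. Because Efemp1 had the lowest ratio of all, this distance picks other very low genes and shows no further likeness.

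Fbn2 encodes fibrillin-2, a microfibril protein made mainly before birth. One feature held a value throughout, with log2 ratios of −2.69, −3.93, −2.72 and −3.26 on arrays 1 to 4. The mean was −3.15 ± 0.58 (SD, n = 4), an 8.86-fold fall (limma, adjusted p = 0.00123), and 1.18% of all genes had a lower ratio. The ratios were lower on both arrays where the knockout carried Cy3, with means of −2.71 for Cy5 and −3.59 for Cy3. This dye difference had an unadjusted p = 0.0383 and an adjusted p = 0.325 (limma), where 14.8% of all genes had an unadjusted p under 0.05. Another Fbn2 feature gave a value only on array 4, at −1.24, the same sign as the first but nearer to 0 than its −3.26 on that array.

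Fbln1 encodes fibulin-1, a fibulin of vessel walls and basement membranes. Its features, both complete, were averaged, which gave −1.43, −1.25, −1.80 and −1.58 on arrays 1 to 4. The mean was −1.52 ± 0.23 (SD, n = 4), a 2.86-fold fall (limma, adjusted p = 0.00245). The features moved in parallel, one being lower than the other by 0.19 to 0.31 on every array, and each passed when tested by itself (means −1.39 and −1.64, limma adjusted p = 0.00274 and 0.00210, where 29.7% of all features tested by themselves were lower). The fall was larger on arrays 3 and 4 (mean −1.69) than on arrays 1 and 2 (−1.34).

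Fbln5 encodes fibulin-5, a short fibulin that binds elastin and integrins and whose loss in mice leaves elastic fibres disorganised. Its complete feature stood at −1.16, −1.17, −0.85 and −0.75 on arrays 1 to 4, all below 0. The mean of −0.98 ± 0.22 (SD, n = 4) is a 1.97-fold fall (limma, adjusted p = 0.00612). Here the fall was the smaller on arrays 3 and 4 (mean −0.80, against −1.17 on arrays 1 and 2), the opposite of Fbln1. The other Fbln5 features were mostly blank. One held −1.48 on array 1 alone, and the other −1.01 on array 2 and 0.07 on array 4, where the complete feature was at −0.75.

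Fbln2 encodes fibulin-2, a large fibulin that binds many matrix proteins. Its log2 ratio was 0.09, 0.06, 0.34 and 0.52 on arrays 1 to 4, above 0 throughout, as 66.5% of all genes lay on one side of 0 on every array. The mean of 0.25 ± 0.22 (SD, n = 4) did not pass (limma, adjusted p = 0.127), with a 95% interval of −0.07 to 0.57. It passed only with arrays 1 and 4, and 2 and 3, averaged (limma, adjusted p = 0.0366).

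Eln, which encodes tropoelastin, the soluble precursor of the elastic core, had log2 ratios of −0.16, −0.15, 0.36 and −0.03. Array 3 alone was above 0. The mean was 0.00 ± 0.24 (SD, n = 4; limma, adjusted p = 0.989), with a 95% interval from −0.32 to 0.32. The fall measured for Fbln5 lies outside this interval, and changes of up to 0.32 in either direction lie inside it.

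Mfap4 encodes a microfibril-associated glycoprotein that binds elastin, and its ratios were 0.32, −0.07, 0.03 and −0.24 on arrays 1 to 4. Arrays with the knockout in Cy5 lay above 0 and those with Cy3 below it. The mean was 0.01 ± 0.24 (SD, n = 4; limma, adjusted p = 0.904), with a 95% interval from −0.21 to 0.23.

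Mfap5, the gene of microfibril-associated glycoprotein 2, which binds fibrillins, had ratios on both sides of 0. It stood at 1.78 on array 1, −2.50 on array 2 and −1.05 on array 4, and was blank on array 3. The single array with the knockout in Cy5 was above 0 and both with Cy3 were below. When a blank on 1 array was allowed, limma gave a log2 ratio of 0.00 with a 95% interval from −1.67 to 1.68 (adjusted p = 0.997). Blanks were not particular to these genes, since 8 of the 12 features were complete, or 66.7%, against 71.4% of all 33653 features with 1 symbol.

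Ordered by log2 ratio, Efemp1 was lowest, followed by Fbn2, Fbln1, Fbln5, Eln, Mfap4 and Fbln2. From Efemp1 up to Eln, each gene's range over the arrays lay wholly below that of the next. The closest of these pairs were Fbln1 and Fbln5, where Fbln5 was higher by 0.53 ± 0.42 (SD, n = 4) and by as little as 0.08 on one array. The ranges of Eln, Mfap4 and Fbln2 overlapped, and Mfap4 was above Eln on 2 of 4 arrays. The differences between genes in this order were not tested.

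**Figure D2:**
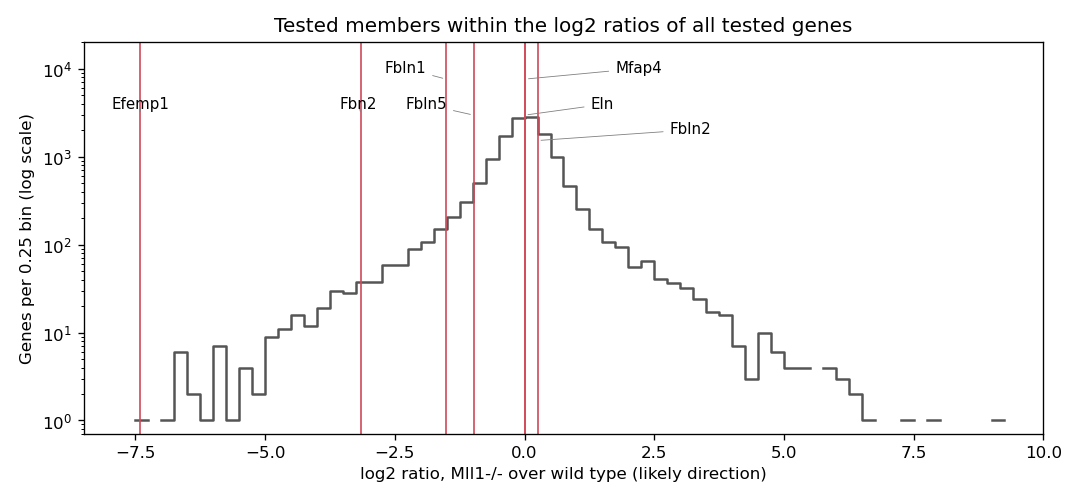
Number of tested genes (log scale) per 0.25-wide bin of log2 ratio, drawn as a stepped line that is broken where a bin is empty, with the 7 tested elastic fibre and fibulin genes as vertical lines. Efemp1 is the lowest of all 14222 genes, and Eln and Mfap4 lie at the centre.

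The other genes of elastic fibre assembly and turnover moved both ways. In 7 lists that hold 70 genes, 59 were tested, of which 25 fell and 24 rose, with a median log2 ratio of 0.15. These shares stand beside 30.1% and 29.1% of all genes. At least 2-fold falls numbered 10 and at least 2-fold rises 9, where 8.06% and 6.3% of all genes changed that much.

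Among microfibril-associated and latent TGF-beta binding proteins, 7 of 12 fell and 4 rose, with a median of −0.27. Ltbp2, a fibrillin-binding protein of the latent TGF-beta binding family, fell 6.61-fold (−2.72 ± 0.19, limma adjusted p = 0.000660), with values between −3.00 and −2.58 on the arrays. Emilin1, a glycoprotein at the border of elastin and microfibrils, fell 6.03-fold (−2.59 ± 0.21, limma adjusted p = 0.000808). Mfap2, which encodes the fibrillin-binding glycoprotein MAGP-1, fell 2.21-fold (−1.15 ± 0.12) as the average of 2 features. The lower feature stood at −1.84 when tested by itself, so the other lay above the average. The rises were small, with Mfap3l at 0.53 ± 0.10, Ltbp3 at 0.51 ± 0.12 and Emilin3 at 0.46 ± 0.14, the call of Emilin3 being lost without array 2 or 3 (highest limma adjusted p = 0.0610).

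All 5 lysyl oxidases, which cross-link elastin and collagen, passed the test, in opposite directions. Loxl2 rose 3.32-fold (1.73 ± 0.21) and Loxl4 2.31-fold (1.21 ± 0.19). Loxl3 fell 2.55-fold (−1.35 ± 0.12) and Lox 1.73-fold (−0.79 ± 0.40). Lox stood at −0.44 and −0.45 where the knockout carried Cy5 and at −1.09 and −1.18 where it carried Cy3, so its size differed with the dye while its sign did not. Loxl1, known in mice to be needed for elastic fibre renewal, was at −0.21 ± 0.13 (limma, adjusted p = 0.0220), a call lost in 7 of 13 alternatives, among them each array left out (highest adjusted p = 0.125).

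Of 7 fibulin relatives and partners, 5 fell and 1 rose, with a median of −0.52. Nid2, a basement membrane nidogen, fell 5.75-fold (−2.52 ± 0.19). The tenascin gene Tnxb fell 1.85-fold (−0.89 ± 0.16) as the average of 2 features, the lower of which stood at −1.25 by itself. The proteoglycan gene Vcan stood at −0.54 ± 0.29. Its call was lost in 4 of 13 alternatives, among them without array 1 or 3 (highest limma adjusted p = 0.102). Timp3, whose protein binds fibulin-3, rose 1.88-fold (0.91 ± 0.19).

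ADAMTS, ADAMTS-like and processing genes mostly rose, 5 of 9 against 2 that fell, with a median of 0.68. Thsd4, an ADAMTS-like gene whose protein binds fibrillin, rose 13.9-fold (3.80 ± 0.79), and Adamtsl5 rose 2.51-fold (1.33 ± 0.07). Adamtsl3 had the largest mean of the list (5.97 ± 2.54) but stood at 8.97 and 7.17 with the knockout in Cy5 and at 3.96 and 3.76 with Cy3. Adamtsl4, which was lower, was at −0.50 ± 0.15 and lost its call without array 1 (limma, adjusted p = 0.0585). The other gene of this list called lower changed sign with the dye.

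Enzymes that degrade elastic fibres, with their inhibitors, fell in 3 of 8 cases and rose in 3, with a median of −0.33. Mmp2, a gelatinase that also cuts elastin and fibrillin, fell 9.54-fold (−3.25 ± 0.17), and its membrane-bound activator Mmp14 fell 2.85-fold (−1.51 ± 0.12). Mmp9, another gelatinase, rose 2.74-fold (1.46 ± 0.53), a call lost without array 1 (limma, adjusted p = 0.0585). The cathepsin gene Ctsl (0.60 ± 0.12) and the inhibitor gene Timp2 (0.47 ± 0.13) rose less. Timp1 was at −0.39 ± 0.21 (limma, adjusted p = 0.0473), a call lost in 9 of 13 alternatives, each array left out among them (highest adjusted p = 0.150).

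Cell-surface receptors of elastin and fibrillin rose in 6 of 10 cases and fell in 1, with a median of 0.48. The integrin genes Itga8 (1.47 ± 0.25), Itgb1 (1.20 ± 0.18) and Itgav (1.01 ± 0.43) rose, the call of Itgav being lost without array 3 or 4 (highest limma adjusted p = 0.0718). Sdc4, a heparan sulphate proteoglycan of the cell surface, fell (−1.01 ± 0.16). Of TGF-beta ligands, which are stored in latent form on microfibrils, and their receptors and mediators, 4 of 8 fell and 3 rose (median −0.20). Tgfbr3 (−1.62 ± 0.44), Tgfb2 (−1.09 ± 0.30) and Tgfb3 (−0.86 ± 0.27) fell, while the receptor gene Tgfbr2 (0.82 ± 0.14) and the mediators Smad3 (0.72 ± 0.12) and Smad2 (0.47 ± 0.41) rose. With each probe by itself the lower of the 2 Tgfbr2 features was at 0.47, and Smad2 lost its call without the dye term (limma, adjusted p = 0.0677), standing at 0.85 and 0.80 with the knockout in Cy5 and at 0.15 and 0.08 with Cy3.

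**Figure D3:**
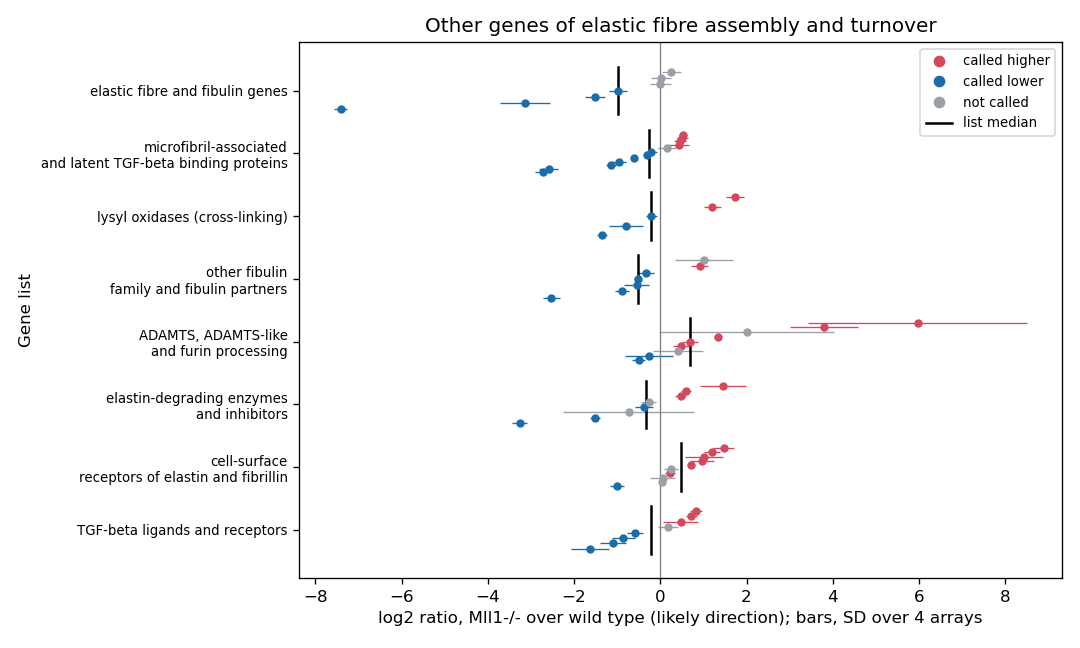
Log2 ratio of every tested gene in the member list and in 7 lists of other elastic fibre genes, each point the estimate over 4 arrays with its SD as a bar, coloured by the limma call, with the list median as a black line. Efemp1 and Fbn2 lie far below 0, whereas the lysyl oxidases lie on both sides of it.

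Marker genes of cell types moved beside these results, and their part in the falls of Efemp1, Fbn2, Fbln1 and Fbln5 was not tested. The marker lists are short, and each count stands beside 29.1% of all genes that rose and 30.1% that fell. Of 7 tested fibroblast markers 3 rose and 3 fell (median 0.47). The rises were S100a4 (1.04 ± 0.29), Vim (0.57 ± 0.13) and Col1a1 (0.53 ± 0.14). The falls were Dcn (−2.21 ± 0.85), Pdgfra (−2.03 ± 0.24) and Pdgfrb (−1.59 ± 0.21). Smooth muscle markers, from a cell type that also makes elastic fibres, rose in 4 of 6 cases (median 1.69) and fell in 1, with ratios from −0.31 to 4.29. Adipocyte markers fell in 3 of 5 cases and rose in 1 (median −1.33). Cartilage and bone markers fell in 3 of 6 and rose in 1 (median −0.33). Endothelial markers fell in 2 of 4 and rose in 1 (median −0.11). Cdh5, counted among the endothelial falls, stood at 0.42 and 0.46 with the knockout in Cy5 and at −1.35 and −1.09 with Cy3. Macrophage and blood markers rose in 2 of 4 and fell in 1 (median 1.33). Of 3 epithelial markers tested, 0 passed, and 1 had an unadjusted p under 0.05 (limma; median 0.25). Ratios do not say whether any of these markers was above background in either line.

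The tested genes beside Efemp1 on chromosome 11 moved in both directions. Among the 10 nearest tested genes, 5 on each side in the order of a RefSeq gene table (GRCm38.p6), 3 fell and 2 rose. Over all genes 30.1% fell and 29.1% rose, so these counts lie near the background. The median log2 ratio of the 10 was −0.08 and the lowest ratio −0.34 (Vrk2). The next tested gene on one side, Ccdc85a, which encodes a coiled-coil protein, rose 54.0-fold, with log2 ratios of 5.97, 6.13, 6.49 and 4.42 on arrays 1 to 4 (mean 5.75 ± 0.92, limma adjusted p = 0.00207). The next on the other side, Pnpt1, which encodes a mitochondrial RNA-processing enzyme, stood at −0.08 and did not pass (limma, adjusted p = 0.184). The lowest ratio of all genes thus stood next to one of 5.75. The 10 neighbours of Fbn2 on chromosome 18 had a median of −0.12. Their ratios ran from −0.68 (Smim3) to 3.09 ± 0.60 (Megf10, a cell-surface receptor gene). Neighbours of Fbln1 on chromosome 15 had a median of −0.06. Arhgap8 at −1.42 and Ppara at −1.21 were the lowest of them, and D130051D11Rik at 2.30 the highest. Neighbours of Fbln5 on chromosome 12 had a median of 0.28.

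**Figure D4:**
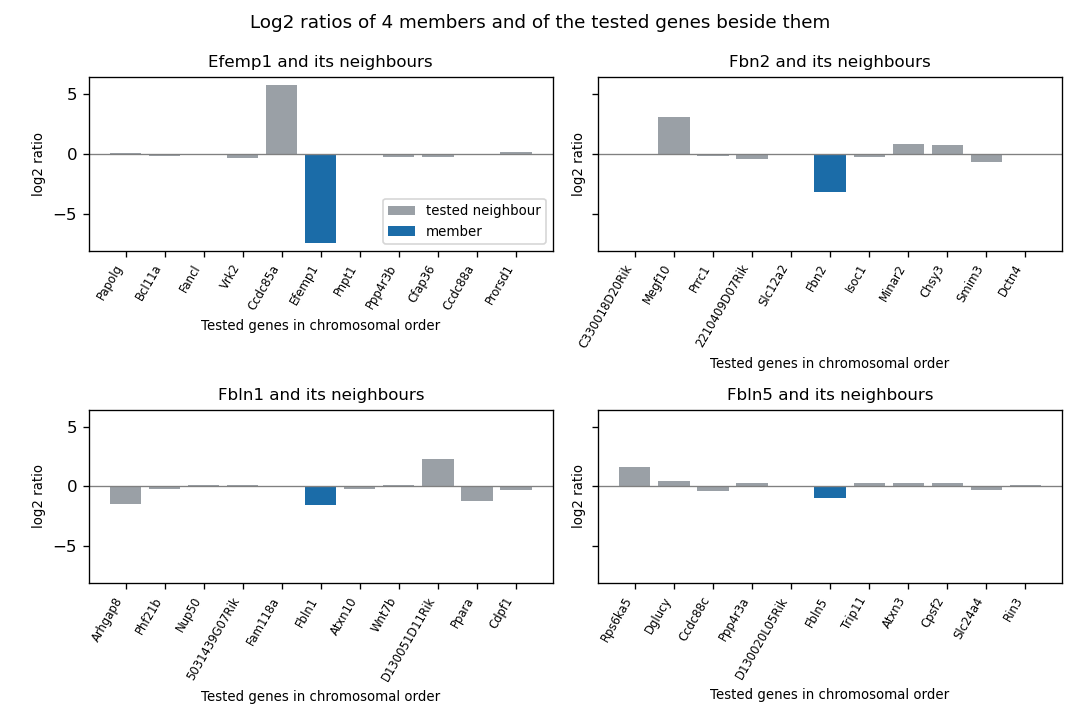
Log2 ratio of Efemp1, Fbn2, Fbln1 and Fbln5 (blue) and of the 5 nearest tested genes on each side (grey), in chromosomal order and on a common scale. The fall of Efemp1 stands beside a rise of 5.75 in Ccdc85a, and the other neighbours of Efemp1 lie between −0.34 and 0.15.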

How the data were processed

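RNA of both genotypes was co-hybridised, with dye swaps, to Agilent mouse expression arrays, per the labels' protocols, and Agilent Feature Extraction 10.1.1 is named in the submitters' processing notes. In the deposited table the authors give 1 log2 ratio of the channels per feature and array. How they corrected background, normalised, chose the log base and the direction, or set blanks is not given in the sources used. Base 2 was inferred from the range, and all columns already ran in a common direction, since arrays of opposite dye correlated positively (r from 0.72 to 0.78 over 29054 features). Array medians were −0.01, 0.03, −0.02 and 0.02.

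Features were named through the platform annotation. Features with 1 symbol and a value on all 4 arrays were averaged per gene and fitted with limma 3.58.1 in R 4.3.3 (lmFit, eBayes, with a gene-specific dye term, 2 residual degrees of freedom), with Benjamini-Hochberg adjustment over 14222 genes and a threshold of 0.05. The script was tested on simulated data. Errors are SDs over the 4 arrays, whose number limits the precision, and 95% intervals are limma's. The members and gene lists were chosen with earlier results of these data known. All members are named, and per pathway list at most the 3 largest passing changes in each direction that had 1 sign on all arrays. Marker genes, chromosomal neighbours and the genes named from them were described outside this rule. Alternatives covered the dye term, centring, scaling, single probes, blanks, the variance prior, averaged or blocked array pairs, and each array left out. Promoter windows came from a RefSeq table.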

Additional observations from a re-analysis of the deposited data

Results flagged for a closer look

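Among the 42 member and pathway genes screened for an array far from the other 3, 2 stood out, where chance marks about 1 gene in 20. The mean of Vcan (−0.54) includes −0.11 on array 4, away from −0.73 to −0.64 on the others. That of Thsd4 (3.80) includes 4.97 on array 1, away from 3.27 to 3.49 on the others, and its ratio was 3.43 without array 1. None of the 7 tested elastic fibre and fibulin genes stood out in this way.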

How the results depend on the processing

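The falls of Efemp1, Fbn2, Fbln1 and Fbln5 kept their sign and their side of the threshold in all 13 alternatives, with limma adjusted p-values of at most 0.0297. Log2 ratios ranged from −7.50 to −7.33 for Efemp1, from −3.32 to −2.98 for Fbn2, from −1.64 to −1.42 for Fbln1 and from −1.09 to −0.88 for Fbln5. The count of listed genes that rose went from 0 to 1 with arrays 1 and 4, and 2 and 3, averaged, where Fbln2 (0.25) passed (adjusted p = 0.0366). Eln, which did not pass in any of them, changed sign with arrays centred on their medians (−0.00046), and ranged from −0.127 to 0.131 as each array was left out in turn, below 0 without array 3 (−0.127) or 4 (−0.028). Mfap4 likewise ranged from −0.061 to 0.084, below 0 without array 1 (−0.061) or 2 (−0.033). Over all genes, rises numbered 4140, from 2532 to 2860 with an array left out and 2690 with arrays 1 and 2, and 3 and 4, averaged. Falls numbered 4275, from 2879 to 3005 with an array left out and 2923 with the same pairs averaged. The causes were not tested. Of the 35 pathway genes named, 27 kept their call in all 13 alternatives, 8 lost it in at least 1, and 0 changed sign. The planned random block of array pairs could not be fitted beside the dye term, so it was run without that term, an alternative chosen after seeing the data, with a correlation of −0.037. Each ratio already compares the genotypes within an array, and since the arrays form a single group, no replicate number pairs samples across groups. Ratios without intensities leave the signal over background unknown.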
